A study of Homo sapiens with 45 samples.

Results

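The p53 target genes were taken as a given list of 34 genes that the tumour suppressor p53 is known to switch on, and were found by matching gene symbols to the Ensembl identifiers of the expression table. Of the 34, 32 had a row among the 15698 genes of the table. EDA2R, a receptor of the tumour necrosis factor family, and SPATA18, a protein of mitochondrial quality control, were not listed and have no value here. The rule that picked the genes used no measured value, though earlier results of these data were known when the list was chosen.

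p53 is a transcription factor that is kept scarce in unstressed cells because its own target MDM2 marks it for degradation. DNA damage, blocked transcription, disturbed ribosome assembly and other stresses release it from MDM2, and it then binds response elements made of a pair of 10-base decamers. Its targets halt the cell cycle, repair DNA, restrain growth, open death receptor pathways and feed back on p53 itself. HCT116, the colorectal carcinoma line from which the cells were derived, is a textbook model of the p21 response to p53.

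Transcriptomes of vorinostat-resistant HCT116 cells (HCT116-VR) were measured by RNAseq in 45 libraries. HCT116-VR is a single derived line, obtained by growing the parent line in rising doses of vorinostat, an inhibitor of histone deacetylases. The cells received lipid alone (mock) or 1 of 14 siRNA pools at 40 nM (siNFYA, siTOX4, siSAP130, siGLI1, siPOLR2D, siCCNK, siCDK10, siJAK2, siEIF3L, siPSMD13, siBEGAIN, siRGS18, siTGM5, siDPPA5), and were harvested after 48 h. No vorinostat is named for these samples. Each of the 15 conditions had 3 libraries, and lipid alone was the control, so the comparisons hold no non-targeting siRNA.

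The names of the libraries were not borne out by the data, and this limits every comparison below. Columns of the table carry numbers, and only a sample list in the supplement of the study pairs them with conditions. For the 11 siRNA targets with a row in the table, the 3 lowest libraries of each make up 33 places, and in only 3 of these did the listed siRNA match the gene. Libraries are therefore called by their listed names (such as "the library listed as siJAK2 replicate 1"), and no library was given another condition. Results are accordingly of separate kinds: descriptions of each gene over all 45 libraries, which use no names, and tests of the listed names as they stand.

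To give each value an error without names, the libraries were grouped by likeness. A tree of the libraries was built from 2194 variable genes, none of them a p53 target of the list, and it held 15 sets of exactly 3 nearest libraries that took in all 45. None of the sets (0 of 15) was the same as a listed condition. The sets, numbered 1 to 15, were given no condition and were not tested against each other. They serve to show how far a gene differs between the most alike libraries. For the siRNA targets CCNK, CDK10, EIF3L, GLI1, JAK2, NFYA, POLR2D, PSMD13, SAP130 and TOX4, the 3 lowest libraries were exactly those of a set. For the siRNA target BEGAIN they were not. The paper reports that replicates of each siRNA clustered together in its own trees. Whether the sets are the true conditions was not tested.

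In the deposited values, which are log2 of counts scaled to library size (CPM) with 0.5 reads added, the libraries held between 7569592 and 21149597 reads (median 11551126). The lowest count of any p53 target in any library was 16 reads, for TP53I3. All 32 genes passed the filter on low values used for the tests. Of the markers of this epithelial line, all 6 were listed, and each had at least 565 reads in every library. None of the 4 leukocyte markers or the 4 endothelial markers had a row, and of 4 fibroblast markers only COL1A1 did, with 33 to 314 reads. In lysates of whole cultures, fewer cells that express a gene and less of its RNA per cell cannot be told apart.

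Promoter sequences were searched for exact matches to the p53 decamer consensus next to the start of the genes. The table of RefSeq promoters (GRCh38.p14), each of 300 bases from 250 before to 50 after a start, held 27 of the 34 named genes, EDA2R and SPATA18 among them, and 7 of these 27 had at least 1 match to the p53 decamer consensus, which reads the same on both strands. Counted by promoter, 7 of 39 (17.9%) held a match, beside 6.63% of all 35116 promoters. A pair of such matches with a gap of at most 13 bases occurred in DDB2 alone of the 27, beside 0.0285% of all promoters. The windows are given below on the strand of the gene, 5′ to 3′, with exact matches to the consensus in capitals. Decamers that depart from the consensus were not searched for and stay in lower case.
DDB2, chr11:47214975-47215003, + strand: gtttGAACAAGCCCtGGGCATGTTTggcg
FAS, chr10:88991299-88991328, + strand: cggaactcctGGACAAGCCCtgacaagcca
SESN1, chr6:109009018-109009047, - strand: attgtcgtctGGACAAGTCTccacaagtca
PLK2, chr5:58460199-58460228, - strand: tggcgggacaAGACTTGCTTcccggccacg
RPS27L, chr15:63157517-63157546, - strand: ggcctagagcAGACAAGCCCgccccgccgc
AEN, chr15:88621296-88621325, + strand: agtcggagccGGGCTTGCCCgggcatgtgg
FDXR, chr17:74872986-74873015, - strand: gggcaggagcGGGCTTGCCCtgcggagcag

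In DDB2 the decamers lie downstream of the start, from base 5 on. In the other 6 genes the decamer begins upstream, from base -132 in PLK2 to base -11 in FDXR. A match is a description of letters and no evidence of binding in these cells. Genes without a match in this window, CDKN1A and MDM2 among them, can carry their elements elsewhere.

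As a group the p53 targets were well expressed, and most of them varied moderately over the 45 libraries. Their median level was 5.37 on the log2 scale, against 4.29 over all genes. Their median s.d. (n - 1) over the libraries was 0.45, against 0.40 over all genes. A s.d. of at least 0.75 was reached by 3 of the 32 (GDF15, CDKN1A and TP53I3), and by 14% of all genes. At the other end, FBXO22 had a s.d. of 0.21, RRM2B 0.26 and POLH 0.26. Per kilobase of exon, the highest median levels were those of KITLG (6.93 on the log2 scale) and GDF15 (6.02), and the lowest were those of SESN1 (0.77) and SUSD6 (0.96).

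Most of this spread lay between sets of alike libraries and little of it within them. The share of the sum of squares between sets had a median of 94.8% over the 32 genes, from 84.8% (XPC) to 98.1% (ZMAT3), and a median of 87.8% over all genes. Among the 13472 genes that are neither in the tree nor on the list, the median was 88.8%. Between listed conditions the median share was 26.8% for the p53 targets and 29.4% for all genes, where 31.8% is what 15 groups of 3 give by their degrees of freedom alone. The s.d. within sets was 0.07 for TNFRSF10A, the lowest, and 0.25 for TP53INP1, the highest.

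**Figure D1:**
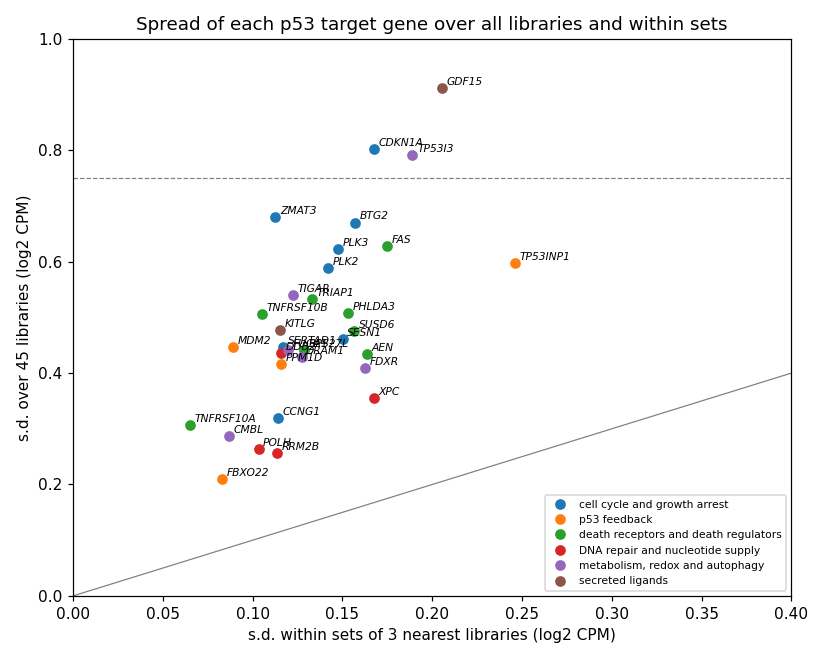
Each point is one of the 32 p53 targets, with its s.d. within sets of 3 nearest libraries on the x axis and its s.d. over the 45 libraries on the y axis, both in log2 CPM, coloured by role. The dashed line marks 0.75 and the grey diagonal marks equal values. All points lie above the diagonal, GDF15, CDKN1A and TP53I3 lie above the dashed line, and TP53INP1 lies farthest to the right.

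The 8 genes of growth arrest had a median s.d. of 0.61. CDKN1A (ENSG00000124762, chr6:36644237-36655114 of GRCh37, + strand) encodes p21, the inhibitor of cyclin-dependent kinases through which p53 halts the cycle in G1. Its level ranged from 6.03 to 9.00 on the log2 scale with a median of 6.96, a 7.85-fold range with 628 to 6731 reads. The 3 highest libraries were those of set 10, listed as mock replicate 2 (8.96), siPOLR2D replicate 3 (9.00) and siCDK10 replicate 2 (8.86), and they did not overlap with any other library.

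Below them, CDKN1A formed steps. The libraries of sets 2, 7 and 11 lay together between 8.03 and 8.43. Set 2 holds the libraries listed as siRGS18 replicate 2, siTGM5 replicate 3 and siDPPA5 replicate 3, set 7 those listed as siCCNK replicate 3, siBEGAIN replicate 2 and siNFYA replicate 1, and set 11 those listed as siSAP130 replicate 2, siTOX4 replicate 1 and siBEGAIN replicate 1. The 3 lowest were those of set 3, listed as siNFYA replicate 2 (6.03), siJAK2 replicate 2 (6.04) and siCCNK replicate 2 (6.12). The s.d. within sets was 0.17. The steps from set 3 to the median and from there to set 10 were wider than this spread between alike libraries. The ranges of sets 2, 7 and 11 lay within that spread of each other. The library listed as siCDK10 replicate 1 (6.17) lay within it of set 3, so set 3 was no separate step from that library.

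ZMAT3 (ENSG00000172667, chr3:178677909-178790003, - strand), a zinc finger protein that binds RNA, stood out in set 10 most of all. Its levels there were 6.92, 6.79 and 6.84, which are 4.44, 4.06 and 4.20 times the median library. Every other library lay at 5.46 or lower, the median was 4.77, and the s.d. within sets was 0.11. Without the 3 libraries of set 10 its s.d. over the libraries was 0.43 in place of 0.68.

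BTG2, an antiproliferative protein that hastens the decay of mRNA, and PLK2, a polo-like kinase, were led by set 6, which holds the libraries listed as siTGM5 replicate 1, siCCNK replicate 1 and siPSMD13 replicate 2. PLK2 measured 7.95, 7.94 and 7.74 there, 3.21, 3.19 and 2.78 times the median library, and did not exceed 6.99 in any other library. BTG2 measured 6.01, 5.87 and 5.75 in set 6, and its values of 5.74, 5.71 and 5.79 in set 10 overlapped with them.

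PLK3, a further polo-like kinase, ranged from 3.29 to 5.69 with a median of 4.35. It was lowest in the 3 libraries of set 2 (3.64, 3.35 and 3.29), where CDKN1A was among the higher values. In all libraries of sets 7, 10 and 11, both PLK3 and CDKN1A lay at least 0.5 above their medians. In set 14 this held for PLK3 and not for CDKN1A. CCNG1, cyclin G1, which guides the phosphatase PP2A, had its 3 highest values in set 6 (8.55, 8.36 and 8.27, median of all libraries 7.63) and lay below its median in all 3 libraries of set 10. CCNG1 therefore did not share the order of libraries that CDKN1A had. PLK3 shared its high values in sets 7, 10 and 11 but not in set 2.

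SESN1, a sestrin that restrains mTORC1, had its 3 highest values in set 10 (4.80, 4.88 and 4.70, median 3.63). SERTAD1, a partner of CDK4 and of E2F, had its 3 highest in set 2 (5.79, 5.47 and 5.70, median 4.75) and its 3 lowest in set 13 (4.01, 4.10 and 4.03), which holds the libraries listed as siDPPA5 replicate 2, siTOX4 replicate 3 and siPSMD13 replicate 3. The groups named here do not overlap with the other libraries.

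**Figure D2:**
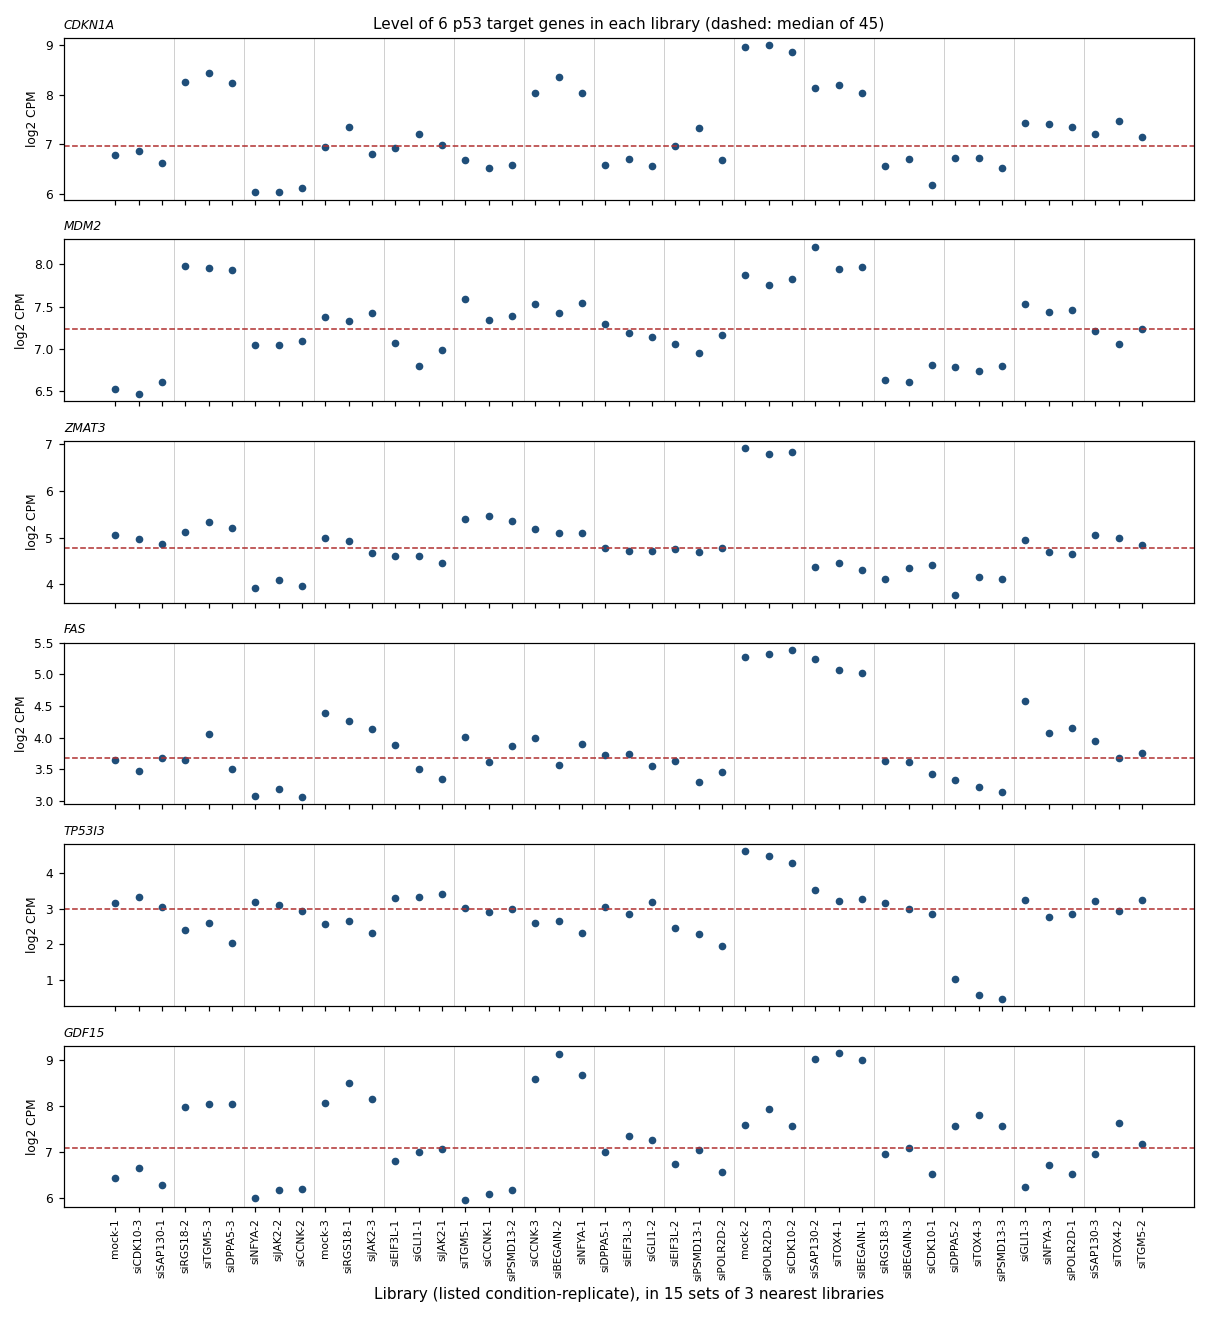
Normalised expression in log2 CPM (y axes) of CDKN1A, MDM2, ZMAT3, FAS, TP53I3 and GDF15 in each of the 45 libraries (x axis, listed condition and replicate), with grey lines between sets of 3 nearest libraries and a dashed line at the median. CDKN1A reaches 9.00 and ZMAT3 6.92 in the set of mock replicate 2, siPOLR2D replicate 3 and siCDK10 replicate 2, while TP53I3 drops to 0.49 in the set of siDPPA5 replicate 2, siTOX4 replicate 3 and siPSMD13 replicate 3.

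Among the genes of p53 feedback, MDM2 (ENSG00000135679, chr12:69201957-69239324, + strand), the ubiquitin ligase that degrades p53, ranged from 6.47 to 8.21 with a median of 7.24. High values were shared by sets 11 (8.21, 7.94 and 7.97) and 2 (7.99, 7.96 and 7.94), which overlap. Set 10 came next (7.87, 7.75 and 7.82), and its highest value lay within the s.d. of 0.09 within sets of the lowest of those. The 3 lowest were those of set 1, listed as mock replicate 1 (6.53), siCDK10 replicate 3 (6.47) and siSAP130 replicate 1 (6.60). MDM2 thus lay 1.43 to 1.55 times above the median library in set 10, where CDKN1A lay 3.73 to 4.11 times above it.

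PPM1D, the phosphatase Wip1 that takes activating phosphates off p53, had its 3 highest values in set 10 (7.41, 7.44 and 7.47, median 6.37). TP53INP1, a nuclear protein that favours phosphorylation of p53, was high in sets 10 (5.18, 5.19 and 5.18) and 13 (4.95, 5.24 and 5.05), with a median of 4.10, and the libraries listed as siTOX4 replicate 2 (5.02) and siTOX4 replicate 1 (5.00) lay within the range of set 13. Its low values were those of set 6 (2.84, 3.15 and 3.34) and of siCDK10 replicate 1 (3.22), which overlap. FBXO22, an F-box subunit of a ubiquitin ligase, was the steadiest of the 32 genes and ranged from 6.04 to 6.88. Its reads carry a limit, since 16.2% of its exonic length overlaps a gene on the opposite strand.

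The death receptors differed among themselves. FAS (ENSG00000026103, chr10:90750414-90775542, + strand), the receptor of FAS ligand, ranged from 3.06 to 5.39 with a median of 3.67, a 5.02-fold range. It was highest in set 10 (5.28, 5.33 and 5.39), next in set 11 (5.24, 5.08 and 5.02), and no library outside these sets exceeded 4.58. The nearest values of sets 10 and 11 (5.28 and 5.24) differed by less than the s.d. of 0.18 within sets, whereas both sets stood farther than that from the rest.

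TNFRSF10B and TNFRSF10A encode the receptors of TRAIL. TNFRSF10B ranged from 5.81 to 7.94 (median 6.67), was highest in set 10 (7.94, 7.89 and 7.88) and lowest in set 4 (5.95, 5.81 and 6.15), which is listed as mock replicate 3, siRGS18 replicate 1 and siJAK2 replicate 3. TNFRSF10A ranged less, from 5.25 to 6.58 (median 5.92), was highest in set 11 (6.58, 6.54 and 6.50) and lowest in set 9 (5.33, 5.25 and 5.40), listed as siEIF3L replicate 2, siPSMD13 replicate 1 and siPOLR2D replicate 2. Both lay above their medians in all libraries of sets 10 and 11.

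Reads from the opposite strand could not be separated, because the library kit does not mark strand. Genes on the other strand overlap 16.7% of the exonic length of TNFRSF10A, 10.7% of FAS and 7.52% of TNFRSF10B. In MDM2, TP53INP1, POLH and TP53I3 the overlap was 1.60% to 3.99%, in FBXO22 it was 16.2% as given above, and in the genes of the list not named here it was 0.

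Of the regulators of death, PHLDA3, which holds back the kinase AKT, had its 3 highest values in set 10 (6.18, 6.28 and 6.19, median 4.89) and its 3 lowest in set 2 (4.29, 3.91 and 3.93). TRIAP1, a small mitochondrial protein that counters apoptosis, was highest in set 10 (7.15, 6.99 and 6.93, median 6.19) and lowest in set 4 (4.75, 4.67 and 4.83). The lowest TRIAP1 value outside set 4 was 5.67. The 3 lowest libraries were thus the same for TRIAP1 and TNFRSF10B.

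SUSD6, a membrane protein, had its 3 highest values in set 10 as well (4.88, 4.54 and 4.98, median 3.50), followed by set 13 (4.21, 4.24 and 4.30). AEN, an exonuclease of apoptosis, was high in sets 10, 13 and 14, with values that overlapped from 6.91 to 7.34 above a median of 6.48, while set 6 reached 7.07. RPS27L, a relative of the ribosomal protein RPS27, was high in set 6 (6.84, 6.53 and 6.53) and set 11 (6.72, 6.50 and 6.51). Its values in set 10 (6.55, 6.32 and 6.32) and set 14 (6.55, 6.32 and 6.30) overlapped with these. Counts of RPS27L are uncertain to the extent that reads are shared with RPS27 and its copies.

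The 4 genes of DNA repair had a median s.d. of 0.31, the lowest of the roles. DDB2 (ENSG00000134574, chr11:47236016-47260768, + strand), which recognises ultraviolet lesions, had its 3 highest values in set 11 (5.75, 5.90 and 5.83, median 4.81). Its values in set 14, listed as siGLI1 replicate 3, siNFYA replicate 3 and siPOLR2D replicate 1, were next (5.63, 5.66 and 5.52). In set 10 it measured 4.87, 4.99 and 4.81, at most 1.13 times the median library.

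XPC, a partner of DDB2 in finding lesions, was lowest in set 13 (4.36, 4.67 and 4.57, median 5.61), 0.42 to 0.52 times the median library. POLH, a polymerase that copies past lesions, ranged from 4.18 to 5.31, and RRM2B, a ribonucleotide reductase subunit that supplies nucleotides for repair, from 6.12 to 7.21. RRM2B was lowest in the same libraries as MDM2, those of set 1 (6.12, 6.44 and 6.15). At most, POLH reached 1.58 and RRM2B 1.27 times the median library, in libraries of set 11.

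Among the genes of metabolism and autophagy, TP53I3 (ENSG00000115129, chr2:24300303-24308731, - strand), a quinone oxidoreductase, had the widest range of the 32 genes, 17.3-fold. It was highest in set 10 (4.60, 4.47 and 4.28) and lowest in set 13 (1.03, 0.59 and 0.49), with a median of 2.99 and a s.d. within sets of 0.19. In the 3 libraries of set 13 it lay at 0.26, 0.19 and 0.18 times the median library. The lowest value outside set 13 was 1.96. These levels rest on 16 to 328 reads per library, so counting error is a larger part of them than for CDKN1A.

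TIGAR, a phosphatase that lowers glycolytic flux, was highest in set 10 (6.18, 5.91 and 5.95, median 4.81) and lowest in set 3 (3.66, 3.37 and 3.79). FDXR, ferredoxin reductase of mitochondria, and FUCA1, a lysosomal fucosidase, were highest in set 10 too. FDXR measured 6.33, 6.42 and 6.22 there against a median of 5.14, and FUCA1 5.64, 5.73 and 5.59 against 4.54. DRAM1, a lysosomal membrane protein of autophagy, went the other way, with 3.99, 4.10 and 3.92 in set 10 against a median of 4.42, and was lowest in set 13 (3.86, 3.70 and 3.69). CMBL, a hydrolase, was lowest in set 13 as well (5.65, 5.59 and 5.59, median 6.40).

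The secreted ligands followed orders of their own. GDF15, a stress cytokine, had the largest s.d. of the 32 genes (0.91) and ranged from 5.96 to 9.14 with a median of 7.08. Its high values were shared by set 11 (9.02, 9.14 and 8.99) and set 7 (8.58, 9.13 and 8.66), and its low values by sets 6 and 3, which together spanned 5.96 to 6.20. In set 10 it measured 7.58, 7.92 and 7.56. KITLG, stem cell factor, lay below its median of 9.56 in all libraries of sets 3, 10 and 11, where it measured between 8.64 and 8.94, and reached 10.26 in the library listed as siEIF3L replicate 1.

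**Figure D3:**
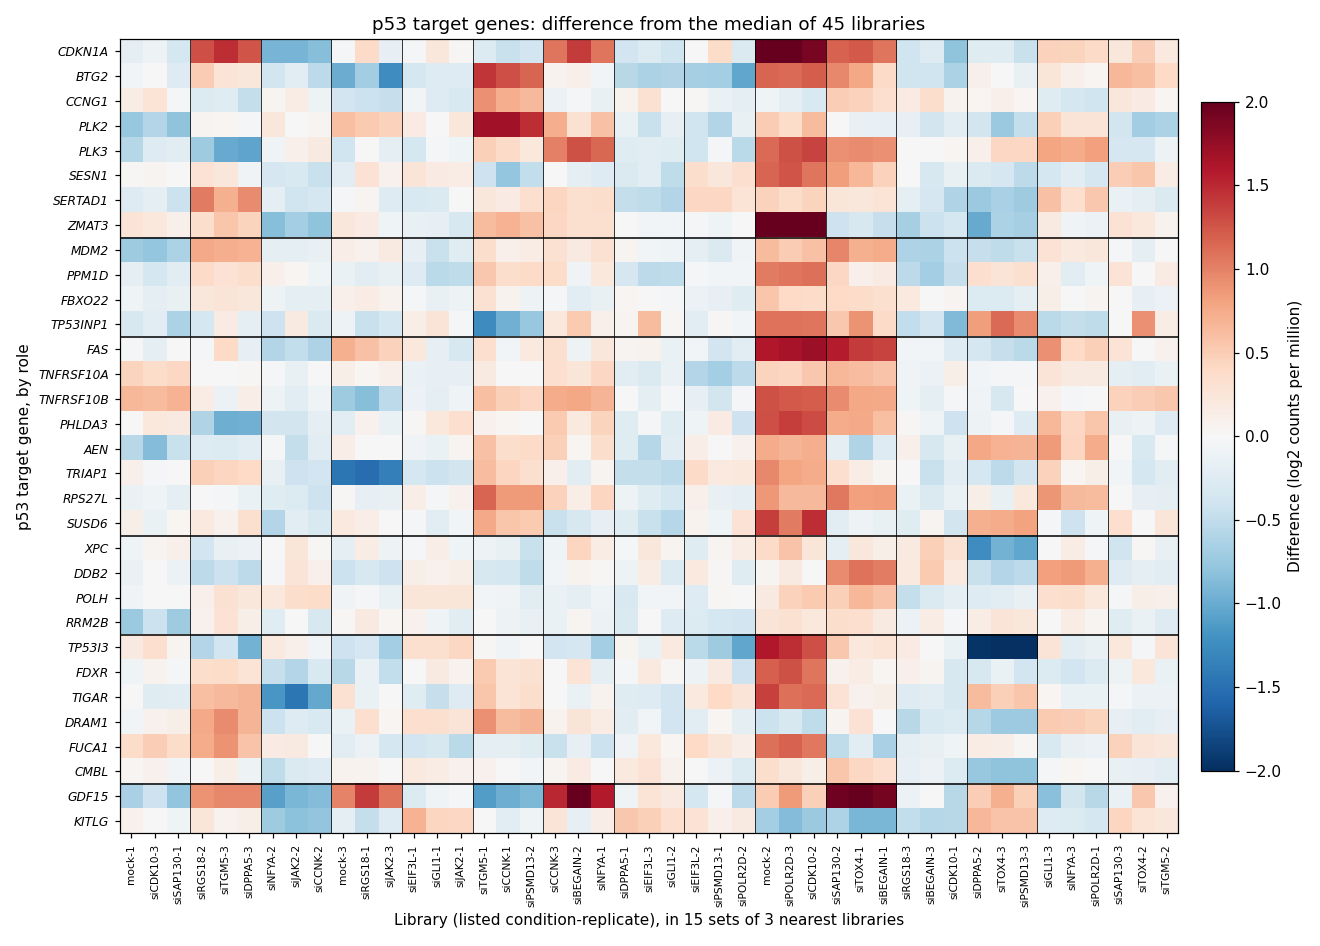
Difference of each of the 32 p53 targets (rows, grouped by role) from its median over the 45 libraries (columns, listed condition and replicate, in 15 sets of 3 nearest libraries), in log2 CPM, with colours capped at 2 in either direction. The columns of mock replicate 2, siPOLR2D replicate 3 and siCDK10 replicate 2 are red in most rows, except DRAM1, KITLG and CCNG1, and TP53I3 is the darkest blue in siTOX4 replicate 3 and siPSMD13 replicate 3.

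Taken library by library, the list as a whole was highest in the 3 libraries of set 10. The median difference of the 32 genes from the median library was 0.91 for the one listed as mock replicate 2, 0.82 in siPOLR2D replicate 3 and 0.73 in siCDK10 replicate 2, on the log2 scale. In these libraries 29, 29 and 28 of the 32 genes lay above their medians, and the median difference of all genes was -0.03, -0.06 and -0.03. Next came set 11 with 0.49, 0.40 and 0.32. The lowest medians were those of set 3, at -0.22, -0.22 and -0.27, and of the library listed as siCDK10 replicate 1, at -0.23.

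**Figure D4:**
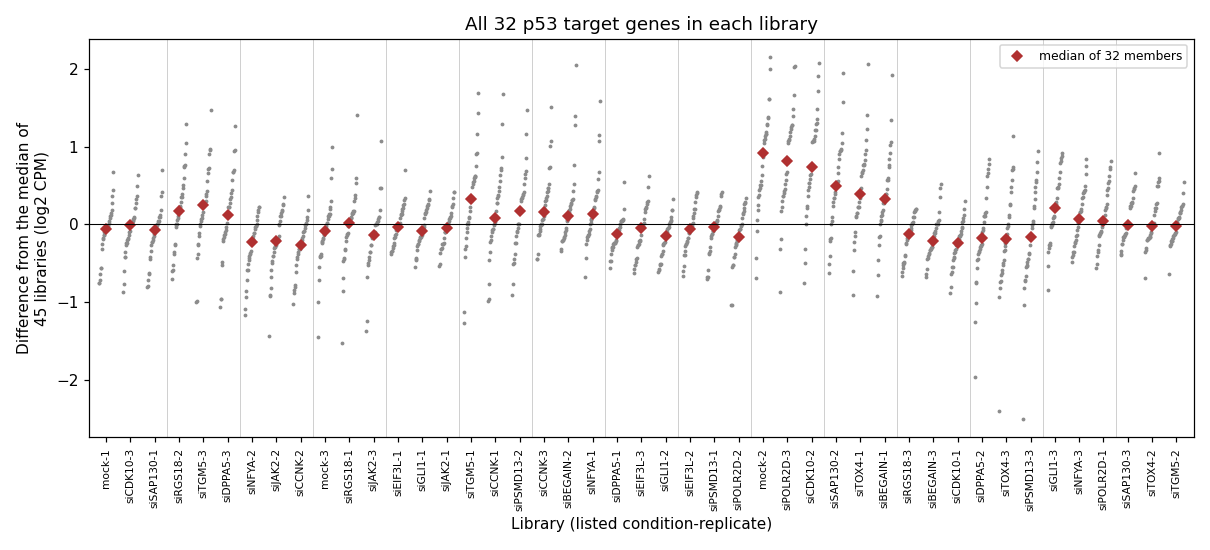
Difference from the median of the 45 libraries in log2 CPM (y axis) for each of the 32 p53 targets (grey points) and their median (red diamonds) in each library (x axis, listed condition and replicate). The diamonds reach 0.91, 0.82 and 0.73 in mock replicate 2, siPOLR2D replicate 3 and siCDK10 replicate 2, and stay between -0.27 and 0.49 in the other libraries.

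In 13 of the 32 genes the 3 highest libraries were exactly those of set 10, which held for 9.59% of all genes. These were CDKN1A, SESN1, ZMAT3, PPM1D, FAS, TNFRSF10B, PHLDA3, TRIAP1, SUSD6, TP53I3, FDXR, TIGAR and FUCA1. At least 0.5 above the median in each of the 3 libraries were 19 of the 32, beside 15.4% of all genes. The further genes were BTG2, PLK3, MDM2, TP53INP1, AEN and RPS27L. The same 3 libraries held the lowest counts of POLR2D, a subunit of RNA polymerase II, with 102, 87 and 147 reads against a median of 1001. They held 13039270, 8849177 and 12451325 reads in all. Of the epithelial markers, CDH1 had its 3 highest and KRT19 its 3 lowest values in them. The part of these values in the levels of the p53 targets was not tested.

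Other sets led fewer genes. Set 11 held the 3 highest libraries of TNFRSF10A and DDB2 (2 of 32, beside 3.82% of all genes), and 10 of 32 lay at least 0.5 above the median in all 3 of its libraries, beside 6.13% of all genes. These 10 were CDKN1A, PLK3, MDM2, FAS, TNFRSF10A, TNFRSF10B, PHLDA3, RPS27L, DDB2 and GDF15. The 3 libraries of set 11 held the lowest counts of PSMD13, a proteasome subunit, with 58, 108 and 97 reads against a median of 3151. Whether these counts bear on the p53 targets was not tested.

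Sets 2 and 6 each held 7 of 32 genes at least 0.5 above the median in all 3 libraries, beside 7.09% and 6.18% of all genes. In set 2 these were CDKN1A, SERTAD1, MDM2, TIGAR, DRAM1, FUCA1 and GDF15. In set 6 they were BTG2, CCNG1, PLK2, ZMAT3, RPS27L, SUSD6 and DRAM1, with CCNG1 and PLK2 having exactly these as their 3 highest libraries (2 of 32, beside 3.56% of all genes). Both sets shared DRAM1 alone. Set 2 held the lowest counts of the siRNA target CCNK, with 43, 42 and 44 reads against a median of 1021. Set 6 held those of GLI1, with 0 reads in each library against a median of only 10. Whether either bears on the p53 targets was not tested.

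In set 13, 6 of 32 genes lay at least 0.5 below the median in all 3 libraries (SERTAD1, ZMAT3, XPC, TP53I3, DRAM1 and CMBL), beside 15.0% of all genes, and 4 lay as far above it (TP53INP1, AEN, SUSD6 and KITLG), beside 6.66%. The set held the 3 lowest libraries of 5 genes (SERTAD1, XPC, TP53I3, DRAM1 and CMBL), beside 4.65% of all genes, and the lowest counts of SAP130, a subunit of the SIN3 corepressor, with 22, 25 and 31 reads. The share of genes at least 0.5 below the median was therefore near that of all genes. Whether the SAP130 counts bear on TP53I3 was not tested.

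In set 3, 5 of 32 genes lay at least 0.5 below the median in all 3 libraries (CDKN1A, ZMAT3, TIGAR, GDF15 and KITLG), beside 2.99% of all genes. Set 3 also held the lowest counts of the siRNA target CDK10, with 12, 27 and 29 reads against a median of 167, and their bearing on the p53 targets was not tested. CDKN1A and TIGAR had their 3 lowest libraries there (2 of 32, beside 0.701% of all genes), and MDM2 and RRM2B had theirs in set 1 (2 of 32, beside 1.73%). Over all 15 sets, the 3 highest libraries were exactly one set for 18 of 32 genes (32.9% of all genes), and the 3 lowest were for 14 of 32 (34.7% of all genes).

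**Figure D5:**
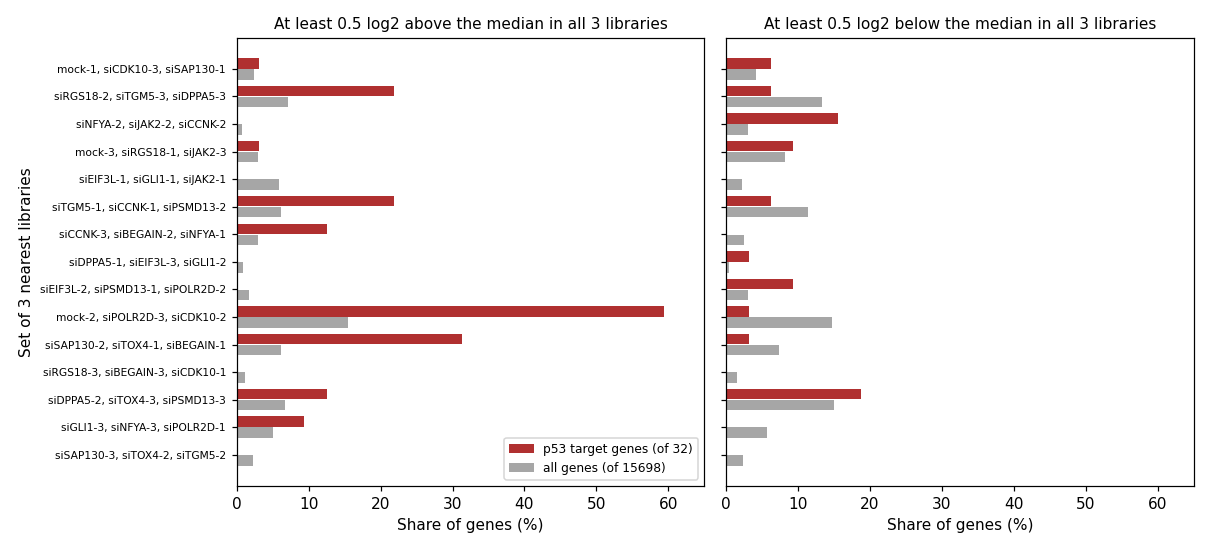
Share in percent (x axes, from 0) of the 32 p53 targets (red bars) and of all 15698 genes (grey bars) that lie at least 0.5 log2 above (left) or below (right) the median of the 45 libraries in all 3 libraries of each set (y axis, listed condition and replicate). The tallest pair on the left, 19 of 32 genes beside 15.4% of all genes, is that of mock replicate 2, siPOLR2D replicate 3 and siCDK10 replicate 2.

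Other genes of the pathway were read from 3 further lists. Of 22 listed genes that p53 is also known to activate, 6 had set 10 as their 3 highest libraries (BAX, TNFRSF10C, TNFRSF10D, ASCC3, PRKAB1 and DCP1B), beside 9.59% of all genes, and 1 had it as its 3 lowest (STEAP3), beside 8.64%. BAX, which opens the outer mitochondrial membrane, measured 5.94, 5.86 and 5.77 there against a median of 5.24. TNFRSF10C, a decoy receptor of TRAIL, measured 3.21, 3.42 and 3.15 against 0.95. The median s.d. of this list was 0.43.

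A further list held 19 genes of the p53 circuit. Among these MDM4, which inhibits p53 alongside MDM2, had its 3 lowest values in set 10 (2.85, 3.47 and 3.39, median 4.49), as did CHEK2, USP7, KAT5 and RPL5 (5 of 19, beside 8.64% of all genes). Of 20 genes that p53 represses through the DREAM complex, 4 had their 3 lowest values in set 10 (CDC20, BUB1B, CCNA2 and MCM5), beside 8.64% of all genes, and E2F1 had its 3 highest, beside 9.59%. The median s.d. of the circuit list and the DREAM list was 0.31 and 0.29, and 0 genes of either reached 0.75.

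By the listed names, no p53 target was called in any comparison. A single limma model of the 45 libraries and 15695 genes, with 30 residual degrees of freedom, set every listed siRNA beside listed mock. With thresholds of 0.05 on the adjusted p (limma, Benjamini-Hochberg) and of 1 on the size of the log2 fold change, 0 of 32 p53 targets and 0 of all genes (0%) were called over the 14 comparisons. Unadjusted p-values under 0.05 occurred in 16 of the 448 tests of p53 targets and in 4.73% of the 219730 tests of all genes. The lowest adjusted p of a p53 target was 0.497 (limma), for TP53I3 in siPSMD13, with a log2 fold change of -1.53 and a standard error of 0.60.

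The F-test over all listed conditions called 0 of 32 p53 targets and 0% of all genes after adjustment by limma, and at an unadjusted p under 0.05 it had 0 of 32 and 241 of all genes. The 3 other lists had 0 calls as well, with 12 of 308, 14 of 266 and 9 of 280 tests at an unadjusted p under 0.05. All 14 comparisons share the 3 libraries listed as mock, which measured 6.78, 8.96 and 6.94 for CDKN1A and lie in sets 1, 10 and 4. Since the names were not borne out by the siRNA targets, the absence of calls says nothing about the effect of any siRNA on these genes.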

How the data were processed

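RNA of HCT116-VR cells was prepared with an unstranded poly-A kit and sequenced in 45 libraries. The authors aligned reads to GRCh37 (TopHat 1.4.1 and CASAVA 1.8.2 in the submitters' processing notes), used HTSeq to count them over Ensembl release 67 genes, and deposited the log2 values that Limma-Voom gave. Whole reads came back when a library's lowest value was set to 0 reads, with 100% of values within 0.001 of a whole number. The adjustments the authors made to library size remain in the values.

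Columns were paired with samples by the sample list of the supplement. Fits were made in R 4.3.3 with limma 3.58.1 (lmFit, then eBayes with a trend). Genes entered with log2 values of -1 or more in 3 or more libraries. On simulated reads for siPOLR2D (15637 genes past the filter, dispersion 0.02, log2 fold of 2), 200 of 200 changed genes were called. In that group 12 unchanged genes were called, and the other groups had 1 call. The change was planted by the listed names, so the simulation does not cover names that are wrong. Trees used average linkage on 1 minus the uncentred Pearson correlation of genes with a s.d. of at least 0.75 that are not on the list. The tree step was tested on simulated data of 2000 genes, where 15 of 15 sets came back. Descriptions were computed with scipy 1.17.1, numpy 2.4.6 and pandas 2.3.3 in Python 3.11.15, and figures with matplotlib 3.10.9. Symbols and coordinates came from GENCODE release 44 on GRCh37, and promoters from RefSeq.

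Members, lists and alternatives were chosen with earlier results of these data known. All listed p53 targets were named, of the other lists up to 5 genes with the largest s.d., and BAX, STEAP3, the genes counted by set and the siRNA targets after their values were seen. Libraries of one condition are stated to come from separate experiments. Some single genes are not reported here.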

Additional observations from a re-analysis of the deposited data

How the results depend on the processing

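Alternatives were no filter or a stricter filter on low values, libraries centred on their medians, quantile normalisation, voom weights, fits of 6 libraries at a time, and leaving out each library. The count of 0 called p53 targets held in all of them. All kept the listed names, which the siRNA targets did not bear out, so this says nothing about the effect of any siRNA. The count of 16 tests of p53 targets at an unadjusted p under 0.05 ranged from 9 to 47 with 1 library left out. With mock replicate 1 left out it was 37, with mock replicate 2 left out 9, with mock replicate 3 left out 47, and with siCDK10 replicate 2 left out 26. The cause was not tested. Leaving out the 3 libraries of set 10 together, chosen after seeing the data, gave 10 such tests, 2 calls among all genes and none among the p53 targets, and left 1 gene with a s.d. of at least 0.75 in place of 3. That count was 2 to 3 with 1 library left out. With centred libraries, set 13 held the 3 lowest libraries of 3 genes in place of 5. The other counts named above for sets 10 and 13 were 13 to 14 and 5 to 6 with 1 library left out, and the share of variance between sets was 94.0% to 95.2%. Of 1632 s.d. values of single genes under the alternatives, 1 moved by more than its error, that of ZMAT3 without set 10.

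With the replicate number as a block, 15 tests of p53 targets had an unadjusted p under 0.05 and 0 were called. Over 315 pairs of libraries with the same listed number, the correlation of deviations from the means of their listed conditions ranged from -0.57 to 0.83. For 23 of 45 libraries the most alike library of another listed condition had their own number. No share expected by chance was computed, so these values do not decide whether the numbers pair the libraries. Depth limits TP53I3 most, and counts cover counting error only.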
